A study of Mus musculus with 180 samples.

Results

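The genes *Ifit1*, *Ifit2*, *Ifit3*, *Isg15*, *Rsad2*, *Cmpk2*, *Mx1*, *Mx2* and *Usp18* are antiviral genes that type I interferon (IFN) induces in macrophages. They were chosen by name from the 45070 genes of the expression table, and all 9 were found. The cells were bone marrow-derived macrophages (BMDM), which are grown in culture from the bone marrow of young adult male C57/BL6 mice and were wild type in every group. Each culture was pre-treated for 1 h with 1 of 58 clinical kinase inhibitors (CKIs) or with the vehicle DMSO, and was then stimulated with 10 ng/ml LPS for 2 h. All 180 samples therefore carry the LPS stimulus, and no unstimulated sample was analysed here, so the induction itself was not measured. Every CKI had 3 samples. DMSO had 6, in 2 labelled sets of 3 that the labels do not tie to particular CKIs. Each CKI was used at a concentration of its own, so CKIs are compared as treatments and not at matched doses.

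LPS is a bacterial cell wall component that is sensed by TLR4. TLR4 signals through the adaptors TRAM and TRIF to the kinase TBK1, which phosphorylates the transcription factor IRF3, and IRF3 switches on the IFNβ gene *Ifnb1* and a few antiviral genes directly. Secreted IFNβ then binds its receptor IFNAR, whose kinases JAK1 and TYK2 activate a complex of transcription factors that contains IRF9 and binds to short DNA elements called interferon-stimulated response elements (ISRE) in the promoters of the antiviral genes. IFIT proteins bind foreign RNA. *Rsad2* encodes viperin, an enzyme that makes a chain-terminating nucleotide from CTP, and *Cmpk2*, its neighbour in the genome, encodes a nucleotide kinase. *Isg15* encodes a ubiquitin-like protein that is attached to other proteins, and USP18 removes it again and dampens IFNAR signalling. MX proteins are GTPases that block viruses, and laboratory strains such as C57BL/6 carry defective copies of their genes, so here these genes report transcription rather than protection.

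The genes lie in few places of the mm10 genome. *Ifit2* (chr19:34550694-34576534), *Ifit3* (chr19:34583529-34588982) and *Ifit1* (chr19:34640889-34650009) stand in a row on the plus strand within 99316 bases. *Rsad2* (chr12:26442743-26456452, minus strand) and *Cmpk2* (chr12:26469215-26479837, plus strand) point away from each other, with their starts 12763 bases apart. *Mx1* (chr16:97447035-97462906, minus strand) and *Mx2* (chr16:97536081-97560901, plus strand) are separated by 73175 bases. *Isg15* (chr4:156199424-156200818, minus strand) and *Usp18* (chr6:121245906-121270917, plus strand) have no other member near them.

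The RefSeq promoter table of build GRCm38.p6 held 6 of the 9 genes, *Ifit1*, *Ifit2*, *Ifit3*, *Isg15*, *Rsad2* and *Cmpk2*. The 250 bases before each start were searched for the core of the ISRE, TTTCNNTTTC or its reverse complement GAAANNGAAA, with overlapping matches counted. The core was found in 4 of the 6 genes, with 2 matches in *Ifit1*, 2 in *Ifit3*, 3 overlapping ones in *Isg15* and 1 in *Rsad2*, whereas 2.98% of the 32851 promoters in the table held any and 0.18% held 2 or more. It was also found in 11 of the 24 genes that the table held of a list of 30 other interferon-stimulated genes. For a list of 16 NF-kB-dependent genes it was found in 0 of 13. In these lists a match in any window of a gene counted. The members were read at their annotated start and the 2.98% counts single windows, so the shares are not on the same basis. A match describes the letters of this window and is not a bound site. The promoters with a match are shown from 5′ to 3′ up to the base before the start, with the matches in capitals. That of *Cmpk2*, the neighbour of *Rsad2*, held none and is shown beside them. The 2 windows of *Ifit2* also held 0 matches. Whether the matches relate to the values below was not tested.
Ifit1 (chr19:34640749-34640888, plus strand): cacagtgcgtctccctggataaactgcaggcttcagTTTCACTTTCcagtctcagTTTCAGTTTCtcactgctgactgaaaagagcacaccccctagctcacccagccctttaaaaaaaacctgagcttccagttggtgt
Ifit3 (chr19:34583369-34583528, plus strand): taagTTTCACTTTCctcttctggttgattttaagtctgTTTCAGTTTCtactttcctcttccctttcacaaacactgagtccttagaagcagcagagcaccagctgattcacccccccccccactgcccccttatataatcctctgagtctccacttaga
Isg15 (chr4:156200819-156200978, minus strand): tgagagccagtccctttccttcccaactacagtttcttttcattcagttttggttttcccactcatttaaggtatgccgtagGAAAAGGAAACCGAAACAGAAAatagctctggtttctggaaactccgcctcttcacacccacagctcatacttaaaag
Rsad2 (chr12:26456453-26456612, minus strand): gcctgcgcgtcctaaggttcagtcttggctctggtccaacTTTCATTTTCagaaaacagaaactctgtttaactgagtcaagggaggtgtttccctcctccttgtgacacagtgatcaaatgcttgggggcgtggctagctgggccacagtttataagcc
Cmpk2 (chr12:26469055-26469214, plus strand): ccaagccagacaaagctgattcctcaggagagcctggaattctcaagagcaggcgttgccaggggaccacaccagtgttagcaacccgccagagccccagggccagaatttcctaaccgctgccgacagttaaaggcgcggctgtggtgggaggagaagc

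The deposited values are read counts on exons that the authors scaled between samples and rounded, and are called normalized values here. They summed to between 9477340 and 12273349 per sample, and the 9 genes together took between 0.561% and 1.07% of the total in DMSO samples. All 10 macrophage markers were expressed, and their sum lay between 103314 and 218588 in DMSO and between 88471 and 252662 with CKIs. The neutrophil markers summed to at most 1008 in DMSO and 2277 with CKIs, and those of T and NK cells, B cells, dendritic cells, stroma and mast cells to at most 246 in any sample. In such bulk samples fewer responding cells and less RNA per cell cannot be told apart. The reads were not stated to be counted by strand. Of the 51-base windows in the transcripts of *Ifit3*, 50.8% also occur in the transcripts of its near-identical copy *Ifit3b*, so the division of reads between these genes is uncertain. The share was at most 7.02% for the other members.

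In the vehicle control the genes ranged from very high to moderate expression. Per kilobase of transcript, normalized values in the 6 DMSO samples were 7705 ± 2008 for *Rsad2* and 5734 ± 2178 for *Ifit1* (SD, n = 6). *Cmpk2* followed at 5471 ± 3165, *Ifit2* at 3539 ± 1508, *Ifit3* at 2690 ± 1100 and *Isg15* at 2627 ± 1353. *Usp18* at 1160 ± 254, *Mx1* at 885 ± 430 and *Mx2* at 668 ± 283 were the lowest. Neighbours in this order differed by less than the larger of their SDs, apart from *Isg15* and *Usp18*. *Ifnb1* stood at 158 ± 92.8 on the same scale.

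The DMSO samples were spread widely. The 6 normalized values of *Mx1* were 2252, 3587 and 936 in set 1 and 3697, 2640 and 1213 in set 2. For 8 of the 9 genes the 2 samples numbered 3 were the lowest, and for 7 of the 9 the sample numbered 1 of set 2 was the highest. The log2 differences of the members between the sets lay between -0.03 and 0.23. Limma called 0 of the 9 members and 0 of all 12714 genes tested between the sets. At an unadjusted p under 0.05 there were 0 members, beside 2.44% of all genes. Such a spread limits which changes can be called with 3 CKI samples. The fit used below did not take the replicate number into account, and a fit that did is given at the end.

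The 3 samples of a CKI were set against all 6 DMSO samples by limma on log2(normalized value + 1) in 12714 genes, and a gene was called at a Benjamini-Hochberg adjusted p under 0.05. Fold changes are on this scale and all comparisons share the same DMSO samples. Where the samples of a CKI are said to lie outside the DMSO range, the share of all genes that did so is not given here. Of 522 pairs of a member and a CKI, 19 (3.64%) were called lower and 7 (1.34%) higher. Over all genes and CKIs 1.65% were lower and 2.52% higher, so the members' share of higher calls was below that of all genes. They fell on 11 CKIs, 7 with members that were lower and 4 with members that were higher, and with the other 47 CKIs the test called 0 of 423 pairs, of which 32 (7.57%) had an unadjusted p under 0.05, beside 12.1% of all genes with these CKIs. *Cmpk2* was lower with 7 CKIs and *Rsad2* with 3, *Ifit2*, *Mx1* and *Mx2* were lower with 2 each, and *Ifit1*, *Ifit3* and *Usp18* with 1 each. *Isg15* and *Rsad2* were higher with 2 CKIs each, and *Ifit1*, *Ifit2* and *Mx2* with 1 each. Leaving out the samples numbered 2 of every condition reduced the lower calls from 19 to 5. Leaving out replicate 1, 2 or 3 of the CKIs reduced the higher calls from 7 to between 3 and 4. The higher calls numbered 14 without replicate 1 of DMSO set 2 and 4 without replicate 3 of either set.

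**Figure D1:**
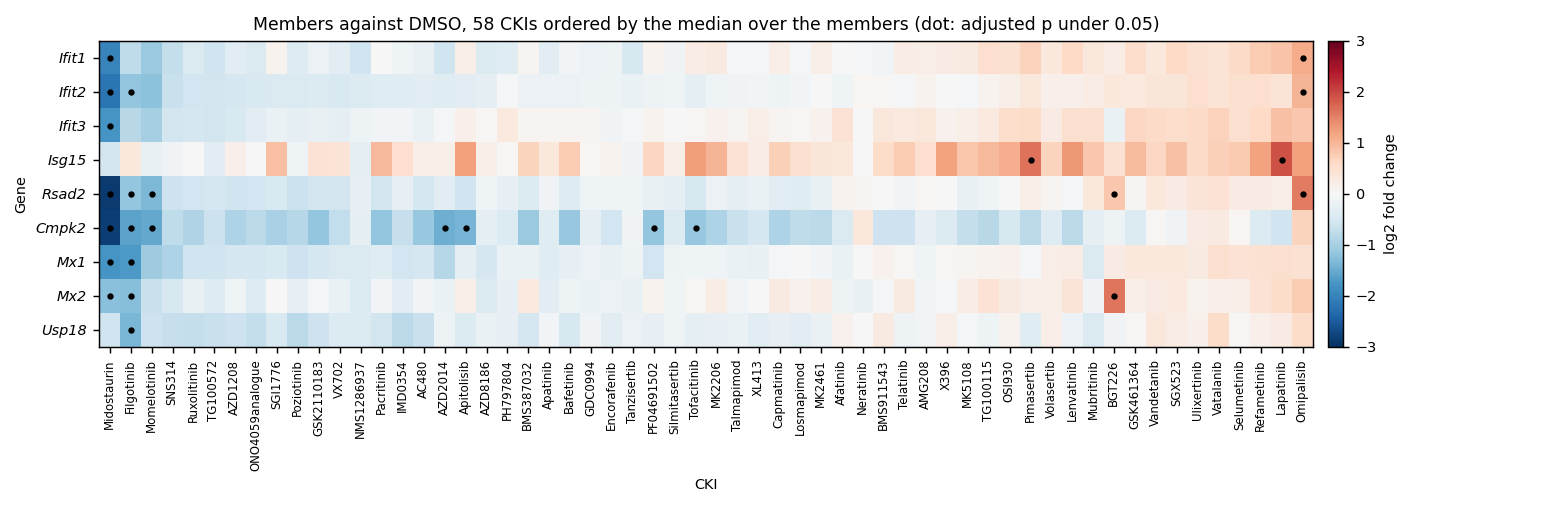
Log2 fold change of the 9 genes (rows) with each of the 58 CKIs against DMSO (columns, ordered by the median over the genes), from blue for lower to red for higher, with dots at an adjusted p under 0.05. Midostaurin, Filgotinib and Momelotinib stand at the low end and Omipalisib at the high end, and the rows of *Cmpk2* and *Isg15* are mostly blue and mostly red.

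Midostaurin, a multi-kinase inhibitor used against FLT3-mutated leukaemia, reduced 7 of the 9 genes, whereas 1.93% of all genes tested were lower. The median log2 fold change was -1.78 over the members and 0.11 over all genes. The viperin gene *Rsad2* fell from 33559, 34143, 18749, 36278, 31918 and 20324 in DMSO to 4672, 3097 and 3921. All of these samples were far below the controls, and the fall was 7.34-fold (log2 fold change -2.88, SE 0.29, adjusted p = 3.34e-14). Its neighbour *Cmpk2* fell to 2432, 2170 and 2024 from values between 10614 and 36530, a 7.09-fold change (log2 fold change -2.83, SE 0.39, adjusted p = 1.60e-08). *Ifit2*, the most reduced of the IFIT genes by fold, went from between 6662 and 23461 to 3296, 2403 and 3202 (log2 fold change -2.19, SE 0.36, adjusted p = 2.83e-06). *Ifit1* went from between 9614 and 25403 to 3824, 2857 and 4208 (log2 fold change -1.9998, SE 0.41, adjusted p = 0.000286). *Ifit3* dropped from between 2619 and 8762 to 1628, 1221 and 1537 (log2 fold change -1.78, SE 0.37, adjusted p = 0.000399), and the copy *Ifit3b* changed by a log2 fold of -1.91. The log2 fold changes of the 3 IFIT genes lay within 1 SE or so of each other, and none of their Midostaurin samples reached the range of DMSO.

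The MX genes were also lower with Midostaurin. *Mx1* was at 623, 512 and 761 against 936 to 3697 in DMSO (log2 fold change -1.76, SE 0.39, adjusted p = 0.00129), and *Mx2* at 685, 523 and 705 against 1031 to 2847 (log2 fold change -1.26, SE 0.32, adjusted p = 0.00609). *Isg15* and *Usp18* did not pass the test, with log2 fold changes of -0.56 (SE 0.51) and -0.60 (SE 0.32), and their samples overlapped with DMSO. Midostaurin gave the lowest mean normalized value of all 59 conditions for every member but *Usp18*. On the log2 scale the mean of *Mx2* was slightly lower with Filgotinib (9.297, against 9.306 with Midostaurin). *Ifnb1* itself was at 11, 7 and 12 against 75 to 262 in DMSO, a 10.2-fold fall (adjusted p = 1.12e-10). Of the 16 genes tested of the interferon arm, which runs from TLR4 to the factors that IFNAR activates, 0 rose. Of 30 other interferon-stimulated genes 6 fell and 0 rose, with a median of -0.49, led by the chemokine gene *Cxcl9* (-2.87) and *Oasl1* (-1.65), a relative of the 2′-5′ oligoadenylate synthetases. Of 16 NF-kB-dependent genes 4 fell, led by the cytokine gene *Il6* (-1.36) and the chemokine gene *Ccl4* (-1.02), and the chemokine gene *Cxcl1* rose (1.01). Without the samples numbered 2 of all conditions 4 of the 7 members remained called, *Ifit1*, *Ifit2*, *Rsad2* and *Cmpk2*.

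**Figure D2:**
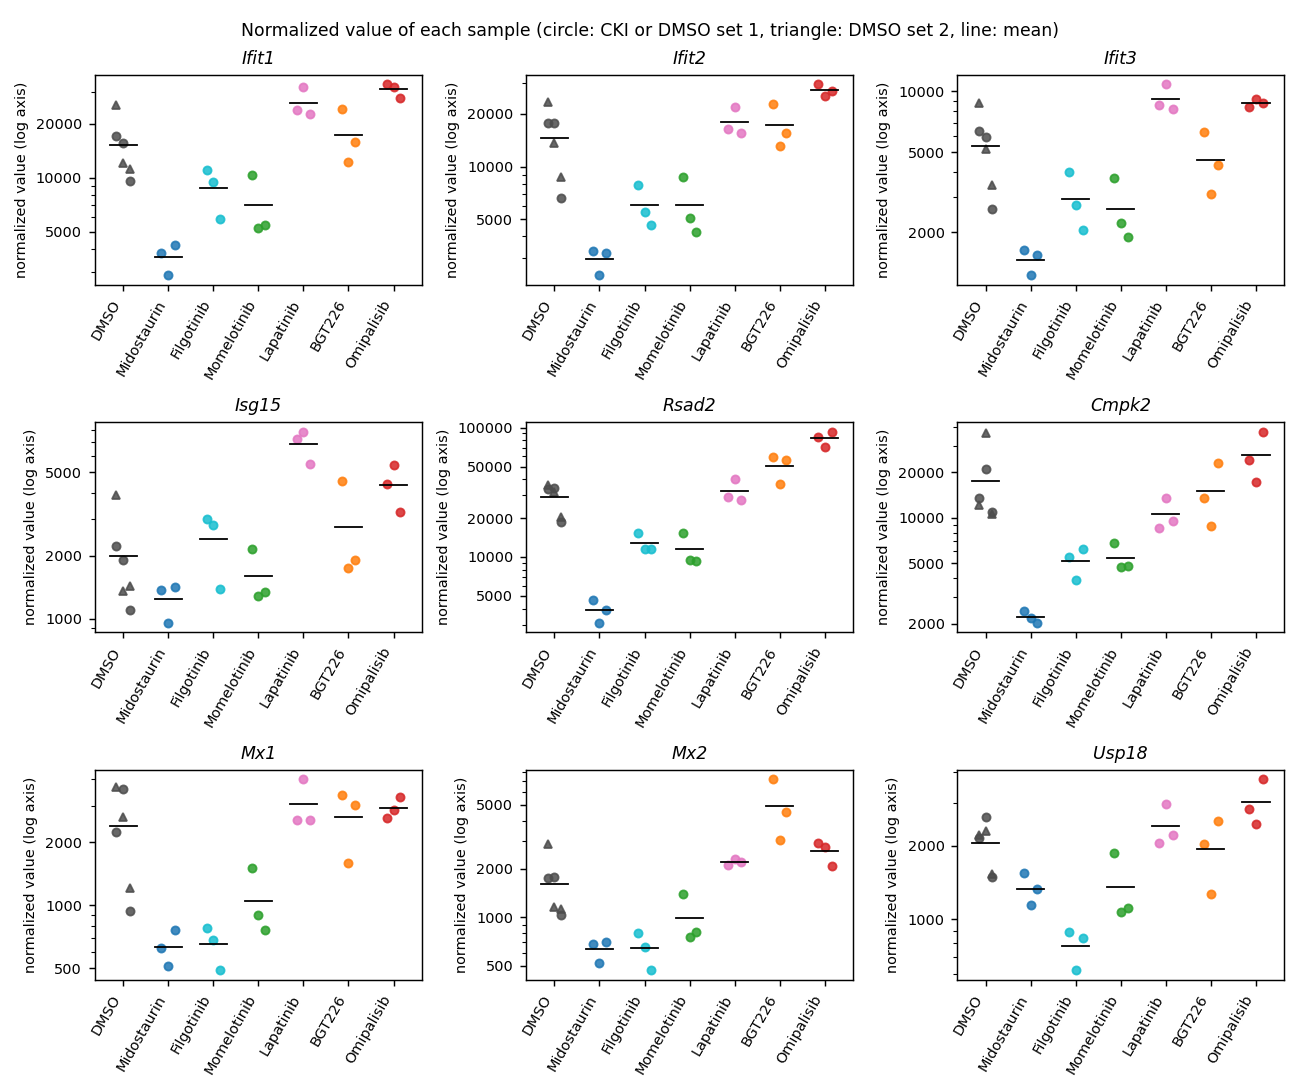
Normalized value of each sample (log axis) for the 9 genes in DMSO and 6 CKIs, with circles for CKIs and DMSO set 1, triangles for DMSO set 2 and a line at the mean. All 3 Midostaurin samples lie below all 6 DMSO samples for 7 genes, and all 3 Omipalisib samples lie above them for *Ifit1*, *Ifit2* and *Rsad2*. The share of all genes that do so is not given here.

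Filgotinib, an inhibitor designed against JAK1, reduced 6 of the 9 genes, against 14.6% of all genes tested. The median log2 fold change was -1.19 over the members and -0.04 over all genes. *Mx1* was most reduced, at 784, 687 and 489 against 936 to 3697 in DMSO (3.30-fold, log2 fold change -1.72, SE 0.39, adjusted p = 0.000516). *Cmpk2* was at 5491, 3896 and 6213 (log2 fold change -1.61, SE 0.39, adjusted p = 0.000912). *Usp18*, the brake on IFNAR signalling, was at 890, 619 and 838 against 1492 to 2630, the lowest mean of the 59 conditions (log2 fold change -1.38, SE 0.32, adjusted p = 0.000672). In these genes no Filgotinib sample reached the DMSO range, and the same held for *Mx2* and *Rsad2*. *Mx2* was at 805, 657 and 468 (log2 fold change -1.27, SE 0.32, adjusted p = 0.00167) and *Rsad2* at 15351, 11488 and 11473 (log2 fold change -1.16, SE 0.29, adjusted p = 0.00148). *Ifit2* was lower as well, at 7853, 5490 and 4675 (log2 fold change -1.19, SE 0.36, adjusted p = 0.00979), although its samples overlapped with the lowest DMSO samples. *Ifit1* (log2 fold change -0.75, SE 0.41) and *Ifit3* (-0.82, SE 0.37) did not pass the test.

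*Isg15* stood apart from the other members with Filgotinib, at 2993, 2799 and 1380 against 1096 to 3901 in DMSO (log2 fold change 0.32, SE 0.51, adjusted p = 0.699). *Ifnb1* was at 233, 183 and 137, and its log2 fold change of 0.71 (SE 0.40) did not pass the test (adjusted p = 0.196). Of the 16 genes of the interferon arm 7 fell, led by *Socs1* (-3.05), an inhibitor of JAK kinases, *Stat2* (-1.39) and *Ikbke* (-1.16), and *Ticam1*, which encodes TRIF, rose (1.14). Of the 30 other interferon-stimulated genes 10 fell and 0 rose, with a median of -0.57, led by *Cxcl9* (-2.77) and *Herc6* (-1.36), a ligase for ISG15. Of the NF-kB-dependent genes 2 fell, *Tnfaip3* (-0.83) and *Nfkb2* (-0.83), and 3 rose, led by *Cxcl1* (1.16) and *Tnf* (1.09). Without the samples numbered 2 of all conditions, *Mx2* was the 1 member still called.

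Momelotinib, an inhibitor of JAK1 and JAK2, reduced 2 of the 9 genes, against 0.409% of all genes tested. *Rsad2* was at 15453, 9492 and 9389 (2.54-fold lower, log2 fold change -1.34, SE 0.29, adjusted p = 0.00358). *Cmpk2* was at 6817, 4705 and 4803 (log2 fold change -1.54, SE 0.39, adjusted p = 0.0221), and for both genes all CKI samples were below DMSO. The other 7 members had log2 fold changes between -1.22 for *Ifit2* and -0.22 for *Isg15*, and the median of -1.07 over the members stood beside 0.11 over all genes. *Ifit2* was called with Filgotinib and not with Momelotinib, although its log2 levels with them differed by 0.03 (SE 0.41). The adjustment is made within each CKI, and 52 genes were called lower with Momelotinib and 1861 with Filgotinib. The counts of called members therefore do not compare the size of effects between CKIs. *Ifnb1* was at 55, 65 and 58, below every DMSO sample, with a log2 fold change of -0.87 (adjusted p = 0.414). Without replicate 2 of DMSO set 1 or of set 2, 1 of the 2 members was called, and 0 were called without replicate 2 or replicate 3 of the CKIs and in a fit of Momelotinib and DMSO alone.

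A direct comparison of these 3 CKIs addressed whether the members were reduced to a different extent. Between Filgotinib and Midostaurin the test called 1 of 9 members (11.1%), *Rsad2*, a share near the 10.1% of all genes, and its level was higher with Filgotinib by a log2 difference of 1.72 (SE 0.33, adjusted p = 5.10e-05). *Ifit1* (1.25, SE 0.47), *Cmpk2* (1.21, SE 0.45) and *Ifit2* (1.00, SE 0.41) were also higher with Filgotinib but did not pass the test. *Mx1* (0.04, SE 0.45) and *Mx2* (-0.01, SE 0.37) were close to equal within wide errors, and *Usp18* was lower with Filgotinib without passing the test (-0.78, SE 0.37, adjusted p = 0.203). *Ifnb1* differed by 4.07 (adjusted p = 4.86e-12). Between Midostaurin and Momelotinib, *Rsad2* was again the 1 member called, against 0.291% of all genes, and was lower with Midostaurin by a log2 difference of -1.53 (SE 0.33, adjusted p = 0.00703). Between Filgotinib and Momelotinib 0 members were called, against 9.62% of all genes. The log2 differences there lay between -0.76 for *Usp18* and 0.54 for *Isg15*, with errors of 0.33 to 0.59, so differences of this size were not detectable here.

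**Figure D3:**
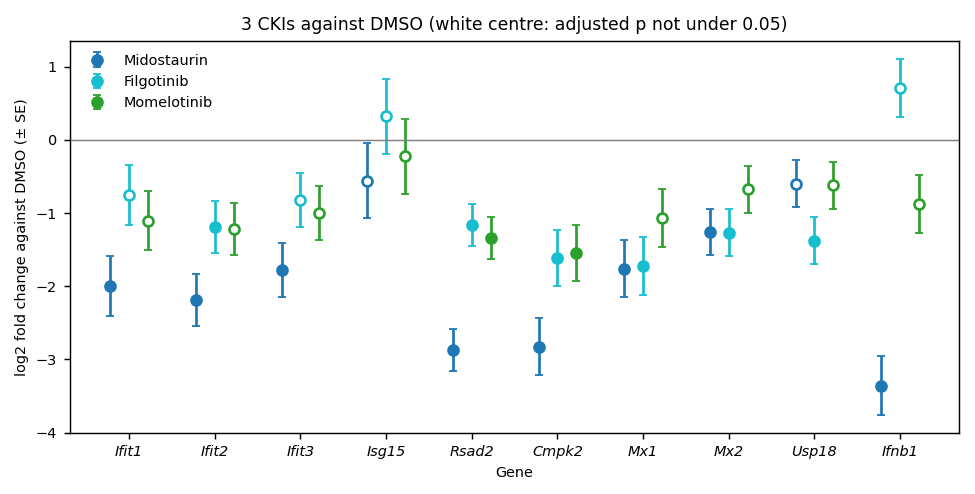
Log2 fold change against DMSO (points, with bars for SE) of the 9 genes and *Ifnb1* with Midostaurin, Filgotinib and Momelotinib, with a white centre where the adjusted p was not under 0.05. Midostaurin lies lowest for the IFIT genes, *Rsad2*, *Cmpk2* and *Ifnb1*, Filgotinib lies lowest for *Usp18*, and both coincide for *Mx1* and *Mx2*.

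With 2 other inhibitors of the JAK family most samples of the members overlapped with DMSO. The median log2 fold change over the members was -0.56 with Ruxolitinib and -0.13 with Tofacitinib. It was 0.03 with BMS911543 and -0.37 with Pacritinib, which the paper also counts as JAK inhibitors and which are not described further. With Ruxolitinib, which is directed at JAK1 and JAK2, *Rsad2* was at 20329, 24300 and 13568, within the range of DMSO but for the lowest sample (log2 fold change -0.58, SE 0.29), and *Mx1* was at 1277, 1851 and 1143 (-0.60, SE 0.39). With Tofacitinib, *Rsad2* was at 21347, 17093 and 22990 (-0.47, SE 0.29) and *Mx1* at 1708, 1916 and 2217 (-0.13, SE 0.39). *Cmpk2* was the 1 member called lower with Tofacitinib (-1.13, SE 0.39, adjusted p = 0.0473), against 0.857% of all genes. All its Tofacitinib samples were below every DMSO sample. *Isg15* with Tofacitinib was at 5364, 5571 and 2714, of which the first pair lay above every DMSO sample (log2 fold change 1.26, SE 0.51, adjusted p = 0.0836).

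Omipalisib, a dual inhibitor of PI3K and mTOR, raised 3 of the 9 genes, against 17.5% of all genes tested. *Rsad2* was at 85142, 71241 and 92964, the highest values of the 180 samples, compared with at most 36278 in DMSO (2.93-fold higher, log2 fold change 1.55, SE 0.29, adjusted p = 8.49e-06). *Ifit1* was at 33141, 31787 and 27862 (log2 fold change 1.11, SE 0.41, adjusted p = 0.0333) and *Ifit2* at 29474, 25365 and 27084 (1.02, SE 0.36, adjusted p = 0.0243). For these 3 genes all Omipalisib samples were above all DMSO samples. The log2 fold changes of the other 6 members were also positive, from 0.46 for *Mx1* to 1.23 for *Isg15*, and did not pass the test. The median over the members was 0.82, beside 0.12 over all genes. *Ifnb1* was at 1727, 2207 and 726, a 12.7-fold rise (adjusted p = 1.37e-13).

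Of the interferon arm, *Ticam2*, which encodes TRAM (1.12), *Tlr4* (0.85) and *Irf9* (0.51) rose with Omipalisib beside *Ifnb1*, and *Ifnar1* fell (-0.72). Of the 30 other interferon-stimulated genes 9 rose and 0 fell, with a median of 0.64, led by *Gbp2* (1.26) and *Gbp3* (1.17), which encode guanylate-binding proteins. Of the 16 NF-kB-dependent genes 9 rose, led by the chemokine genes *Cxcl2* (1.62) and *Cxcl1* (1.60). The call of *Rsad2* held in every alternative, whereas the count of 3 members depended on single libraries. It was 1 without replicate 3 of either DMSO set, 6 without replicate 1 of set 2, and 1 without any 1 of the Omipalisib replicates.

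BGT226, which also inhibits PI3K and mTOR, raised 2 of the 9 members (22.2%), a share near the 24.1% of all genes tested. *Mx2* was at 7238, 3042 and 4506 against at most 2847 in DMSO, the highest mean of the 59 conditions (3.06-fold higher, log2 fold change 1.61, SE 0.32, adjusted p = 1.87e-05). Its neighbour *Mx1* was at 3359, 1587 and 3013, inside the DMSO range (log2 fold change 0.25, SE 0.39). *Rsad2* was at 59250, 36609 and 56230 (log2 fold change 0.81, SE 0.29, adjusted p = 0.0219). The rise of *Mx2* held in every alternative. Without replicate 1 or replicate 3 of the CKIs, or replicate 3 of either DMSO set, it was the 1 member called. The median of all genes with BGT226 was 0.21 above DMSO and moved by -0.19 under median-of-ratios scaling, the largest such shift of the 58 CKIs.

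*Isg15* was called higher with Lapatinib, an EGFR and HER2 inhibitor, and with Pimasertib, a MEK inhibitor, and it was the 1 member of 9 called with each (11.1%), less than the 18.1% and 16.0% of all genes that were higher. It was at 7228, 7815 and 5450 with Lapatinib (3.73-fold, log2 fold change 1.90, SE 0.51, adjusted p = 0.0092) and at 4071, 8449 and 5189 with Pimasertib (3.11-fold, 1.64, SE 0.51, adjusted p = 0.0181), compared with 1096 to 3901 in DMSO. All these samples were above the controls. With Lapatinib the log2 fold change was positive for 8 of the 9 members, *Cmpk2* being the exception (-0.60, SE 0.39). The median was 0.49 over the members and 0.11 over all genes. Of the 30 other interferon-stimulated genes 11 rose and 0 fell. With Pimasertib *Rsad2* (0.18, SE 0.29) and *Mx1* (-0.06, SE 0.39) stayed near the controls, and 5 of those 30 genes rose and 1 fell. Without replicate 1 of DMSO set 2, *Isg15* was called higher with 6 CKIs instead of 2, the others being Apitolisib, Lenvatinib, Omipalisib and Tofacitinib. It was called with 4, Apitolisib and Omipalisib among them, without the samples numbered 1 of every condition and in fits of 2 groups alone, and with Lapatinib alone against DMSO set 2. Without replicate 1 of the CKIs Pimasertib was the 1 CKI called, and without replicate 2 or 3 it was Lapatinib. It was called with 0 CKIs without the samples numbered 2 of every condition, without those numbered 3, and without both DMSO samples numbered 2, of which the last was added after the data had been seen.

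*Isg15* and *Cmpk2* lay on opposite sides of the controls with most CKIs. The log2 fold change of *Isg15* was positive with 49 of 58 CKIs and that of *Cmpk2* negative with 52, with medians of 0.50 and -0.66. The medians of the other members lay between -0.22 and 0.08. Every CKI is set against the same 6 DMSO samples, so these counts are not independent of each other, and the part of the control values in them was not tested. The DMSO values of *Cmpk2* were 13457, 20974 and 10956 in set 1 and 12160, 36530 and 10614 in set 2. The samples numbered 2 were the highest of both sets.

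Beside Midostaurin, Filgotinib, Momelotinib and Tofacitinib, *Cmpk2* was the 1 member called lower with 3 inhibitors of mTOR or of PI3K and mTOR. With Omipalisib (0.68, SE 0.39) and BGT226 (-0.15, SE 0.39), which also inhibit PI3K and mTOR, *Cmpk2* was not called. With AZD2014 it was at 6056, 4520 and 6494 (log2 fold change -1.47, SE 0.39, adjusted p = 0.00232), where 13.5% of all genes were lower. With Apitolisib, which the paper used against JAK1, it was at 5130, 7672 and 5450 (-1.38, SE 0.39, adjusted p = 0.0176), where 3.2% were lower. With PF04691502 it was at 8328, 6172 and 6777 (-1.15, SE 0.39, adjusted p = 0.0339), where 4.22% were lower. In all 3 cases every CKI sample was below every DMSO sample, while *Rsad2* overlapped with DMSO, with log2 fold changes of -0.32, -0.61 and -0.22. This was not particular to these inhibitors, because *Cmpk2* lay wholly below DMSO with 12 CKIs. Its log2 fold change was also -1.18 with Pacritinib, -1.17 with GSK2110183, and -1.13 with Bafetinib and with AC480 (SE 0.39 each). These were not called, since the adjustment is made within each CKI. Without replicate 2 of DMSO set 2, *Cmpk2* was called lower with 3 CKIs, AZD2014, Filgotinib and Midostaurin. Without replicate 2 of set 1 it was called with those and Apitolisib, and with Filgotinib and Midostaurin when both were left out. Without the samples numbered 2 of every condition Midostaurin was the 1 CKI left. Without replicate 1 of the CKIs, and against either DMSO set alone, the calls were again AZD2014, Filgotinib and Midostaurin. Apitolisib joined these without the samples numbered 1 of every condition and in fits of 2 groups alone.

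The ratio of *Cmpk2* to *Rsad2* was examined within each sample. It was 0.401, 0.614 and 0.584 in DMSO set 1 and 0.335, 1.14 and 0.522 in set 2. With AZD2014 it was 0.198, 0.263 and 0.296, below all controls, with a log2 difference from DMSO of -1.15 (exact permutation test over samples, two-sided, p = 0.0238, adjusted over 11 CKIs p = 0.0873). PF04691502 (0.245, 0.302 and 0.33, log2 difference -0.93) and Pimasertib (0.235, 0.325 and 0.28, log2 difference -0.996) were also below all controls and gave the same p-values, although *Cmpk2* itself was not called with Pimasertib. With Omipalisib the ratio was 0.283, 0.244 and 0.4 (log2 difference -0.87, exact permutation p = 0.0476, adjusted p = 0.105). With Midostaurin the log2 difference was 0.05 (exact permutation p = 0.881), so both genes fell together. The 11 CKIs were those with a called member. A p of 0.0238 is the smallest that 3 samples against 6 can give. Adjusted over 11 CKIs it passes only where several CKIs share it, so the test could not decide on a single CKI. None of the 11 CKIs passed it. This ratio was chosen after the data had been seen.

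*Mx1*, which needs signalling through IFNAR, was likewise set against *Ifit2*, which IRF3 can also induce directly. The ratio of *Mx1* to *Ifit2* was 0.128, 0.204 and 0.141 in DMSO set 1 and 0.158, 0.193 and 0.138 in set 2. It was 0.0998, 0.125 and 0.105 with Filgotinib, below all controls, with a log2 difference of -0.53 (exact permutation test, two-sided, p = 0.0238, adjusted over 11 CKIs p = 0.0873). Omipalisib (-0.56) and AZD2014 (-0.49) gave the same p-values, and Midostaurin lay on the other side (0.43, exact permutation p = 0.0714, adjusted p = 0.157). None of the 11 CKIs passed the adjustment, which a CKI at the smallest p cannot pass on its own samples. *Mx1* fell more than *Ifit2* with Filgotinib, and less with Midostaurin, in the values. The adjusted test could not decide on a single CKI.

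Across the 59 conditions the members varied together to different degrees. Pearson's r between the condition means of log2 values had a median of 0.74 over the 36 pairs of members. It was highest between *Ifit2* and *Rsad2* (0.95) and lowest between *Isg15* and *Cmpk2* (0.14). *Rsad2* and *Cmpk2* gave 0.86, and *Mx1* and *Mx2* 0.81. The points are means of 3 or 6 samples that share their scaling and numbered replicates, so these values are descriptions. Within the samples of 1 replicate number, *Rsad2* and *Cmpk2* gave 0.89, 0.76 and 0.85 for numbers 1, 2 and 3.

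The relation with *Ifnb1* was looser in these values. The r of the members' mean with *Ifnb1* was 0.58 and was 0.39 without Midostaurin. For single members it was highest for *Ifit1* (0.66) and lowest for *Usp18* (0.10), and Spearman's rho of *Rsad2* with *Ifnb1* was 0.10 where r was 0.65, or 0.43 without Midostaurin. Mubritinib lay off the line. It raised *Ifnb1* to 1583, 1680 and 412 (9.35-fold, log2 fold change 3.23, SE 0.40, adjusted p = 1.27e-09), but the members had log2 fold changes between -0.45 for *Usp18* and 0.80 for *Isg15*, and their samples overlapped with DMSO. With Filgotinib, *Ifnb1* did not pass the test on the higher side and 6 members were lower.

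**Figure D4:**
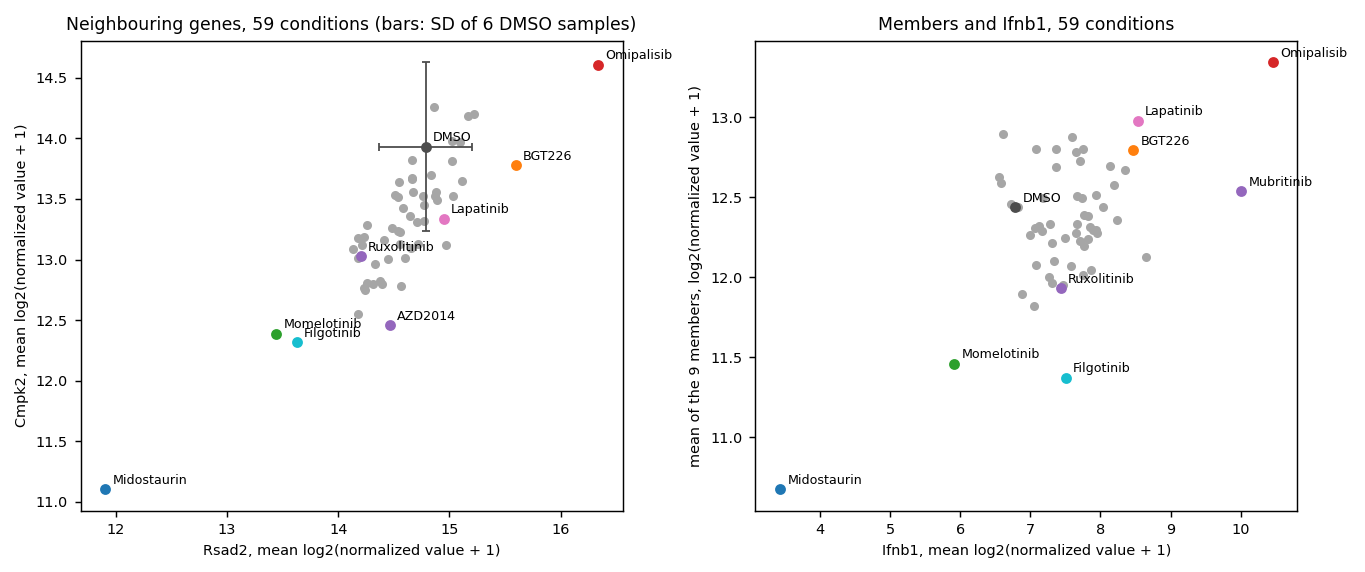
Condition means of log2(normalized value + 1) in the 59 conditions, for *Cmpk2* against *Rsad2* (left, with bars for the SD of the DMSO samples) and for the mean of the 9 genes against *Ifnb1* (right). Midostaurin is at the lower left and Omipalisib at the upper right of both plots, DMSO is high for *Cmpk2*, and Mubritinib is at the right with members near the level of DMSO.

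Of the 12705 other genes, the 10 whose pattern over the conditions was most like the mean of the members had r between 0.91 and 0.94. They were *Zup1*, *Ifit1bl2*, *Ifit3b*, *Ifit1bl1*, *Gm5431*, *Daxx*, *Ppm1k*, *9930111J21Rik1*, *Gm12185* and *Nt5c3*. Among them *Ifit1bl1*, *Ifit1bl2* and *Ifit3b* belong to the IFIT family and can share reads with the members. The median r of all these genes was 0.08. In the samples of each single replicate number, 6 of these 10 genes were again among the first 10.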

How the data were processed

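RNA-seq values of 180 samples of mouse BMDM were used, 3 for each of 58 CKIs and 6 for DMSO. PolyA RNA was amplified by the SMART-seq2 protocol. For the alignment to mm10 the authors used TopHat2 2.1.1 with 1 hit per read, and blacklisted regions were removed with bedtools 2.29.2. Exon counts were scaled by the authors on genes of low variation, rounded, deposited in that form and tested by them with DESeq2. These deposited values are handled as a score without a fixed unit. The deposited table also holds transcript lengths (other values), used for levels per kilobase. Because the values are no longer counts, limma 3.58.1 in R 4.3.3 was run on log2(value + 1) with a variance trend in 1 fit of all 59 groups. Genes with a mean of at least 10 were tested (12714 of 45070), with Benjamini-Hochberg adjustment over genes. Ratios of 2 genes were tested by exact two-sided permutation over 84 splits (SciPy 1.17.1). The fit was tested on simulated data with independent noise in each sample. The simulation held no deviation shared within a replicate number, so it does not cover such sharing. P-values measure the spread between samples described as biological replicates. The depth in reads is not given by the scaled values. The columns were matched to samples by name.

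The members, gene lists and tests were chosen with earlier results of these data known. Named were the 9 members, *Ifit3b*, genes of the interferon arm (1 is not reported here), up to 2 genes per direction of each other list with CKIs that changed at least 3 members, and the 10 genes most like the members. Alternatives were other pseudocounts, filters, scaling, DMSO sets, variance models, a replicate block and leaving out replicates. Leaving out both DMSO samples numbered 2 and the ratio of *Cmpk2* to *Rsad2* were added after seeing the data.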

Additional observations from a re-analysis of the deposited data

Results flagged for a closer look

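The highest of the 6 DMSO values of *Ifnb1*, 262 in replicate 1 of set 2, lay far from the others, which were between 75 and 129. Its gap to the next value was 0.711 of the range, above Dixon's critical value at the 95% level for 6 samples. The same sample was the highest for 7 of the 9 members without passing this limit. Of 11 genes tested in this way, chance flags about 1 in 20.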

How the results depend on the processing

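Of the 26 calls, 0 changed direction in 23 to 24 alternatives each, and 7 passed the test in all of them, namely *Ifit1*, *Ifit2*, *Rsad2* and *Cmpk2* with Midostaurin, *Mx2* with Filgotinib and with BGT226, and *Rsad2* with Omipalisib. Leaving out replicates gave 5 to 21 lower and 2 to 14 higher calls in all, 4 to 7 lower with Midostaurin, 1 to 7 with Filgotinib and 0 to 3 with Momelotinib, and 1 to 6 higher with Omipalisib and 1 to 2 with BGT226. Against DMSO set 2 alone 3 calls were higher in all and 1 each with Omipalisib and BGT226, and 1 was lower with Momelotinib, as it was against set 1 alone, where BGT226 also had 1. Without a filter Omipalisib had 1. With median-of-ratios scaling BGT226 had 1. In a fit of the 2 groups alone Momelotinib had 0, and without both DMSO samples numbered 2 it had 1. The cause of these changes was not tested.

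With the replicate number as a block, 21 calls were lower and 15 higher, 6 of them with Omipalisib, and all 26 calls of the fit without the block remained. *Isg15* was higher with 6 CKIs, adding Apitolisib, Lenvatinib, Omipalisib and Tofacitinib. Between Filgotinib and Midostaurin 4 members were called, while the share of all genes rose from 10.1% to 15.5%. Samples sharing a number correlated in their deviations by 0.225 on average (3811 of 5307 pairs above 0.1), and 155 of 180 correlated best with their own number, but the labels do not say what a number shares. Exact permutation with splits kept within replicate numbers left 0 of 11 CKIs past the adjusted test for every gene ratio. Such splits cannot give a p under 0.0741, so no CKI could have passed and they decide nothing. With *Isg15* in place of *Ifit2*, the ratio was called lower than in DMSO with 9 of 11 CKIs (exact permutation, adjusted p = 0.0291). All 9 had the smallest possible exact permutation p of 0.0238 and passed only together, against the same 6 DMSO samples. Lapatinib and Pimasertib were among the 11 CKIs because *Isg15* itself was called higher, which favoured a low ratio in advance. The mean log2 value of *Mx1* alone was 11.54 with Lapatinib and 11.05 in DMSO, so the ratio does not show a fall of *Mx1*. Splits within replicate numbers could not pass there either (adjusted p = 0.0905). The log2 difference turned to -1.52 with Apitolisib, -1.41 with Lapatinib, -1.20 with Midostaurin, -0.85 with Momelotinib and -1.39 with Tofacitinib. Within each replicate number 6 of the 10 genes most like the members were the same.

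The spread of the 6 DMSO samples and 3 samples per CKI limit what the test detects, and many changes near 2-fold did not pass the test.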
